A study of Mus musculus with 11 samples.

Results

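Collagens, laminins and integrins were followed in cultured mouse neural stem cells (NSCs) as 3 families of genes, which together encode much of the scaffold that a cell sits on and the receptors with which it holds that scaffold. The members were all protein-coding genes whose symbols follow the naming of these families, that is a Col number with an a number, Lama, Lamb or Lamc with a digit, and Itga or Itgb with a digit or letter. This gave 81 genes, 44 collagens, 11 laminins and 26 integrins, of 53801 genes in the tables, 21890 of them protein-coding. No measured value entered the choice.

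The cells were primary NSCs from mouse hippocampus, per the study's methods taken from embryos in the third week of gestation, with C57BL/6 as the strain of the purchased mice, and were kept for 7 days in either of 2 media, and RNA was sequenced from each culture. Proliferation medium held the growth factors EGF and bFGF, and differentiation medium lacked both and held more B27 supplement. In each medium the cells received 1 µM 4HBP or its vehicle, ethanol, so that proliferation medium gave 3 treated and 3 control libraries and differentiation medium 3 treated and 2 control libraries. The sample labels spell the compound out as 4-Hydroxybenzoic acid, whereas the study's text names it 4-hydroxybenzophenone, and the abbreviation 4HBP is used here for whichever was added. Per the study's methods NSCs grew in suspension until neurospheres formed and were then plated on poly-l-ornithine and laminin. Which of these formats the sequenced cultures had is not stated there. A laminin protein of outside origin may thus have lain under the cells, and RNA sequencing does not read it. Nothing in the labels says that the libraries of a group came from separate cultures or embryos, so p-values measure only the spread between these libraries, which may be technical.

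Collagens are triple helices of 3 chains. The fibrillar ones (types I, II, III, V, XI, XXIV and XXVII) form cables, type IV forms the net of basement membranes, type VI forms beaded filaments at cell surfaces, and others sit on fibrils or in the cell membrane. Laminins are cross-shaped trimers of an alpha, a beta and a gamma chain that organize basement membranes, the sheet on which many epithelial, endothelial and glial cells rest. Integrins are pairs of an alpha and a beta subunit that bind these ligands outside the cell and link to actin inside. In the developing brain laminins and their beta-1 integrin receptors are known for anchoring radial glia, the stem cells of the embryonic brain, to the pial and vascular surfaces.

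Each library summed to 20822921 to 23438463 expected counts, with 19029 to 21408 genes above 0. A floor of 3 counts corresponded to 0.128 to 0.144 CPM, a count scaled to a fixed library total, and 55 to 64 members were above it in a library. It covers counting error only. The third 4HBP library in proliferation medium stood apart from its group, with a mean chi-square per gene of 25.6 and 23.1 to the others, which differed from each other by 5.63. The numbers of members called by the main test in each contrast that uses it are therefore given with and without it. So are the members called for 4HBP in proliferation medium or for a difference of its effect between the media. In the medium contrast under 4HBP this was done for few single members. The summed stem cell markers, among them Nes, Sox2 and Vim, were at 7178 to 8588 CPM in proliferation medium and 4276 to 4410 CPM in differentiation medium. Oligodendrocyte lineage markers moved the other way, from 2617 to 4816 CPM in proliferation medium to 9338 to 9711 CPM in differentiation medium. Of the stem cell sums Vim alone made up 2504 to 3264 CPM in proliferation and 709.1 to 837 CPM in differentiation medium. Prom1 and Msi1, also stem cell markers of that list, were higher in every differentiation library than in any proliferation library. Neuron markers summed to 942 to 1106 CPM throughout, of which Map2 alone made up 629.1 to 893.0 CPM. Single neuron markers differed between the media, as given below. In bulk RNA fewer cells of a type and less RNA per cell cannot be told apart.

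Of the 81 members 40 collagens, 11 laminins and 22 integrins exceeded 3 counts in at least 1 library, and 23 collagens, 9 laminins and 17 integrins did so in all 11. In TPM, which divides counts by transcript length and so compares genes, the 26 integrins summed to the highest level, with a mean of 449.5 TPM ± 18.1 (SD, n = 3) in proliferation controls. Collagens summed to 243.2 TPM ± 20.2 there and laminins to 63.9 TPM ± 6.43. In differentiation controls (n = 2) the sums were 498.9 TPM ± 3.31 for integrins, 177.3 TPM ± 2.59 for collagens and 135.5 TPM ± 3.38 for laminins.

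Itgb1, the beta-1 subunit shared by most laminin, collagen and fibronectin receptors, was the most abundant member in every library. Its level was 192.6, 171.7 and 195.4 TPM in proliferation controls and 173.4 and 174.3 TPM in differentiation controls. Among the other integrins Itga6, the main laminin-binding alpha subunit, was at 56.8 to 62.8 TPM in proliferation and 77.9 and 79.9 TPM in differentiation controls. Itgb8, which with Itgav binds and activates latent TGF-beta, was at 58.7 to 63.6 TPM and at 65.2 and 68.0 TPM in the same groups, so that its range overlapped that of Itga6 in proliferation controls and lay below it in differentiation controls. Itgb5, a beta partner of Itgav, was at 30.4 to 34.1 TPM and at 81.7 and 79.1 TPM, below both in proliferation controls, whereas in differentiation controls its range overlapped that of Itga6 and lay above that of Itgb8. Itgav was at 45.5 to 54.9 TPM and at 48.6 and 44.1 TPM, above Itgb5 in proliferation controls and below it in differentiation controls.

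Lamc1, the gamma-1 chain of most laminins, and Lamb2, a beta chain, were the most abundant laminins, at 21.1 to 29.6 TPM and 27.6 to 28.1 TPM in proliferation controls. Their ranges overlapped there, and in differentiation controls Lamc1 stood above Lamb2, at 64.2 and 66.2 TPM against 41.8 and 45.0 TPM. Lamb1, the other widely used beta chain, was low, at 0.16 to 1.21 TPM in proliferation controls. Among collagens Col16a1, a fibril-associated chain, and Col11a1, a minor fibrillar chain, led in proliferation controls, at 60.9 to 68.9 TPM and 37.5 to 48.3 TPM. Col4a5, a basement membrane chain, came next at 33.6 to 39.1 TPM.

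**Figure D1:**
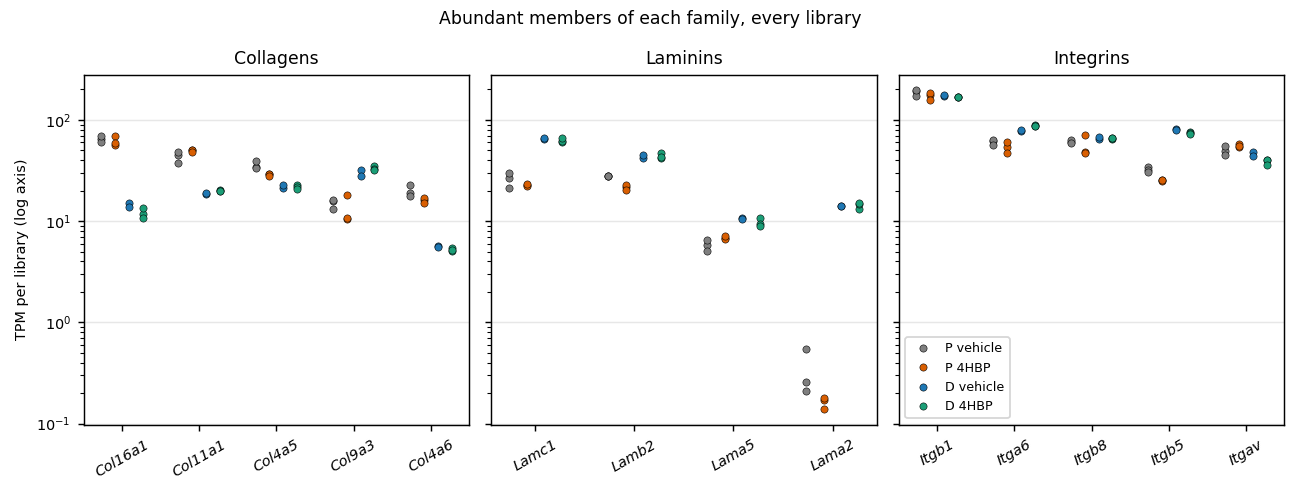
TPM on a log axis of the 5 most abundant collagens and integrins and 4 of the most abundant laminins (by mean over all libraries), a point for each library, coloured by medium (P, proliferation; D, differentiation) and treatment. Itgb1 lies between 155.9 and 195.4 TPM in all 11 libraries, and Lama2 rises from 0.14 to 0.55 TPM in proliferation to 13.3 to 15.2 TPM in differentiation medium.

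The chains of connective tissue were near the limit of detection. Col1a1 and Col1a2, which form the type I collagen of bone and skin, had at most 13 and 11 counts in any library, and Col3a1 at most 15. The leukocyte subunits Itgad and Itgax had no count in any library, and Itgam had at most 1 count. Itgal, another leukocyte alpha subunit, reached 9 counts and Itgb2, the beta subunit of leukocytes, 16. Microglia and leukocyte markers summed to 18.4 to 26.3 CPM, endothelial markers to 6.57 to 24.3 CPM, and pericyte and mesenchymal markers to 52.2 to 108.2 CPM. Cspg4, shared with the oligodendrocyte lineage list, made up 33.1 to 73.8 CPM of the last sum. In these 3 lists 4 to 8 of 12, 4 or 5 of 9, and 2 to 6 of 12 genes were at or under 3 counts in all libraries of a group. The endothelial markers Cldn5 and Cdh5 had no count in any library, the leukocyte marker Ptprc reached at most 0.10 and the fibroblast markers Lum and Dcn at most 0.17 and 0.22 normalized CPM.

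Collagen IV is encoded by 6 genes that lie in pairs, start to start, on 3 chromosomes (GRCm38). Col4a1 (minus strand) and Col4a2 (plus strand) start at positions 11312826 and 11312805 of chromosome 8, with starts 21 bases apart and the transcribed ends overlapping. Col4a4 and Col4a3 start at 82586849 and 82586921 of chromosome 1, and Col4a6 and Col4a5 start 1343 bases apart on chromosome X, at 141474076 and 141475419. The sequences before the starts are shown because each pair moved in 1 direction between the media in CPM. They are from RefSeq (GRCm38.p6), 5′ to 3′ on the strand of the named gene, and hold no annotated exon. They are the 71 bases between Col4a4 and Col4a3 (chr1:82586850-82586920), the 250 bases before Col4a6 (chrX:141474077-141474326) and 216 bases before Col4a5 (chrX:141475169-141475384).
Col4a4 to Col4a3: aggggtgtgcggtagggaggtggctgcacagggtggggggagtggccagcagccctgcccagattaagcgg
Col4a6: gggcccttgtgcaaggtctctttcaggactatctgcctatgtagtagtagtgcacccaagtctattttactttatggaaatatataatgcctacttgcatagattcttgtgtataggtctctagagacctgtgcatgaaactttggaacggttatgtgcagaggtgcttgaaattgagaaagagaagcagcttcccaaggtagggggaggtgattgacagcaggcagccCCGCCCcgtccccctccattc
Col4a5: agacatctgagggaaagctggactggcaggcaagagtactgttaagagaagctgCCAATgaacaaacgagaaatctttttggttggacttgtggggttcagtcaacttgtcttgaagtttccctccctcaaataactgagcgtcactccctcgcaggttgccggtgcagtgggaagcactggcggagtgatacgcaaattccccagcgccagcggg
Capitals mark the matches to 3 motifs searched on both strands, the GC box GGGCGG, the CCAAT box CCAAT and the TATA box TATAAA, which do not overlap here. Of 32851 promoters in the RefSeq table, 32.7% held the GC box in 250 upstream bases and 30.8% held CCAAT in 216, so the single matches before Col4a6 and Col4a5 were of a common kind. None of the 3 motifs was in the 71 bases between Col4a4 and Col4a3, where 20.7% of promoters hold the GC box and 13.3% CCAAT over that length. GC content was 69.0% between Col4a4 and Col4a3, 47.6% before Col4a6 and 52.3% before Col4a5.

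The comparison of the media in control cultures asks how matrix and receptor genes differ between them. Growth factors and the amount of B27 both differed, so their parts cannot be told apart. Of 59 members with enough counts, 24 were higher and 20 lower in differentiation than in proliferation medium, and 15 did not pass (edgeR quasi-likelihood test, Benjamini-Hochberg adjusted p under 0.05 over all genes). Over all 15920 genes tested 30.8% were called higher and 30.6% lower. Of 31 collagens 14 rose and 11 fell, of 9 laminins 5 rose and 2 fell, and of 19 integrins 5 rose and 7 fell. The median log2 fold change of the tested members was 0.08, beside 0.03 for all genes, and the median absolute change was 1.11 beside 0.49. The other 22 members had too few counts to be tested. All values between libraries are CPM scaled by TMM (normalized CPM), and all fold changes are on the log2 scale of that fit.

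Among laminin alpha chains the media differed most. Lama2, the alpha-2 chain of muscle and brain laminin, whose loss in humans causes a congenital muscular dystrophy with white matter changes, was at 0.737, 2.44 and 1.00 normalized CPM in proliferation controls and at 55.4 and 58.0 in differentiation controls. The log2 fold change was 5.36 ± 0.23 (SE), 41.1-fold (adjusted p = 1.14e-09 by edgeR), and 6.04 or 65.7-fold without proliferation control 2, the highest of its group. Lama4, the alpha-4 chain known from vessels and nerves, fell from 4.28, 3.43 and 4.91 normalized CPM to 0.220 and 0.332, a log2 change of -3.88 ± 0.32 (edgeR adjusted p = 3.88e-07). The groups did not overlap for either gene. By TPM, Lama5, the alpha-5 chain of adult basement membranes, led the alpha chains in proliferation controls at 5.07 to 6.52, and Lama2 led in differentiation medium, where it was at 13.3 to 15.2 TPM over all 5 libraries beside 8.94 to 10.8 for Lama5.

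Lamc1 and Lamb2, partners of these alpha chains, also rose. Lamc1 went from 128.2, 120.0 and 140.1 to 269.4 and 280.9 normalized CPM, a log2 fold change of 1.11 ± 0.07. Lamb2 rose by 0.31 ± 0.09 on the log2 scale and Lama5 by 0.41 ± 0.10. Lamb1 rose by 0.91 ± 0.30 from values near 1 normalized CPM. Its call was lost without differentiation control 1 (adjusted p = 0.124) or proliferation control 3 (0.0635), and that of Lamb2 without differentiation control 2 (0.0687). Lama1 and Lama3, known from embryonic and epithelial basement membranes, did not pass (log2 fold changes -0.10 ± 0.39 and -0.84 ± 0.43).

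The collagen IV chains split by pair. Col4a1 and Col4a2, whose products form the common net of basement membranes, both rose: Col4a1 from 8.75, 8.15 and 8.36 to 36.9 and 40.6 normalized CPM, and Col4a2 from 3.64, 3.63 and 3.40 to 17.4 and 20.0. The log2 fold changes were 2.22 ± 0.09 and 2.41 ± 0.12. Col4a3 and Col4a4, which with Col4a5 build the net of the kidney filter, were scarce and rose, by 0.73 ± 0.23 and 3.02 ± 0.35 on the log2 scale. Col4a4 had 7, 4 and 5 counts in proliferation controls and 52 and 49 in differentiation controls. In TPM the groups overlapped for Col4a3, at 0.74, 0.82 and 0.32 in proliferation and 0.66 and 0.84 in differentiation controls. Col4a5 and Col4a6 both fell: Col4a5 from 139.0, 141.6 and 163.8 to 67.4 and 72.5 normalized CPM, and Col4a6 from 91.5, 90.9 and 117.3 to 20.7 and 20.6. Their log2 fold changes were -1.06 ± 0.09 and -2.25 ± 0.12, and in normalized CPM no group overlapped for any of the 6 genes. The share of all genes without such overlap was not counted. In differentiation controls Col4a5 was still at 21.1 and 22.8 TPM, beside 11.9 and 19.1 TPM for Col4a1.

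**Figure D2:**
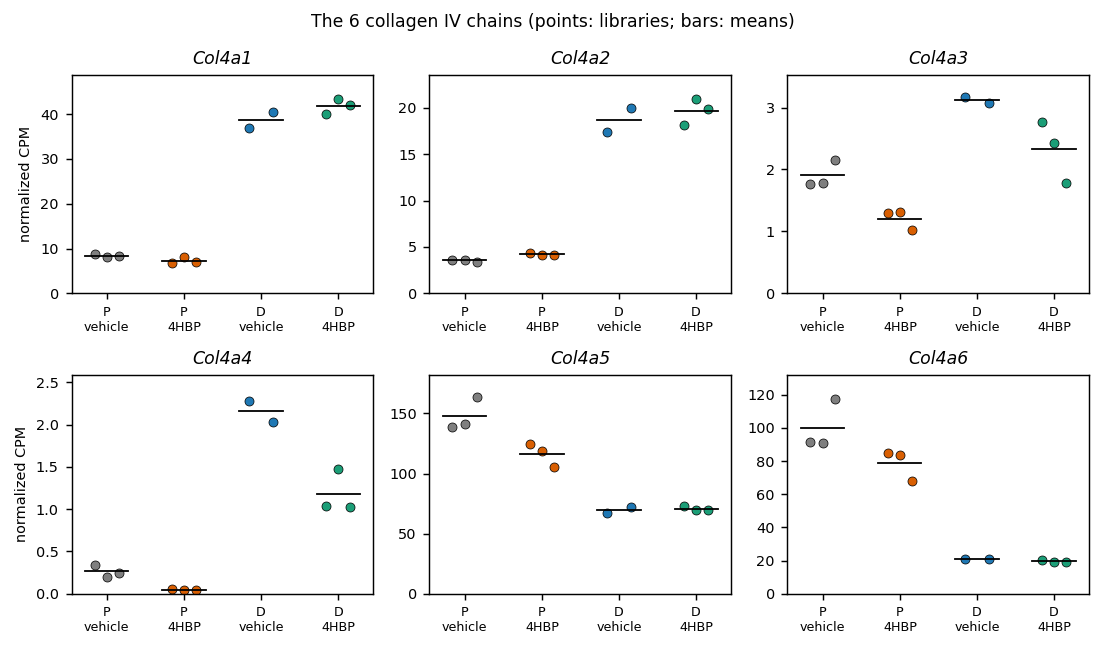
Normalized CPM of the 6 collagen IV chains, a point for each library and a bar for each group mean, by medium (P, proliferation; D, differentiation) and treatment, each panel on its own linear axis from 0. Col4a1, Col4a2, Col4a3 and Col4a4 are higher and Col4a5 and Col4a6 lower in differentiation medium, whose control libraries do not overlap those of proliferation medium.

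Collagen VI, whose alpha-1 and alpha-2 chains are needed together, showed the largest falls among the collagens. Col6a1 went from 13.3, 14.1 and 19.3 to 0.747 and 0.456 normalized CPM, a log2 change of -4.67 ± 0.36, 25.5-fold lower. Col6a2 went from 60, 48 and 96 counts to 2 and 5 counts, a log2 change of -4.43 ± 0.49, or -5.15 without differentiation control 2. Their other partner Col6a3 had 2 to 12 counts in every library and did not pass (log2 fold change 0.08 ± 0.55).

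The chains of types V and XI, which mix in thin fibrils, did not move together. Col11a1 fell from 237.2, 207.3 and 264.1 to 68.0 and 67.4 normalized CPM (log2 -1.78 ± 0.10), whereas Col11a2 rose from 5.16, 5.67 and 5.06 to 44.7 and 44.1 (log2 3.08 ± 0.09). Both calls held in all 11 fits that left out a library. Col5a2 fell by 2.09 and Col5a1 did not pass (log2 -0.42 ± 0.19). In type IX collagen, which coats such fibrils and is a proteoglycan of cartilage and eye, Col9a2 rose (log2 1.70 ± 0.23) and Col9a3 rose (log2 0.55 ± 0.16), and Col9a1 did not pass (log2 0.11 ± 0.18). The call of Col9a3 was lost without differentiation control 1 (edgeR adjusted p = 0.0664).

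Of collagens that sit on fibrils or carry cleaved signal fragments, Col16a1 fell from 134.5, 114.6 and 142.8 to 29.1 and 26.4 normalized CPM (log2 -2.22 ± 0.11), and Col18a1, the source of endostatin, fell from 42.9, 29.4 and 60.0 to 5.54 and 7.21 (log2 -2.77 ± 0.27). Col8a2, a short-chain network collagen, Col22a1 and Col25a1, a membrane collagen of neurons, rose from low counts. Col8a2 had 2, 0 and 4 counts in proliferation controls and 28 and 17 in differentiation controls. Col22a1 had 8, 2 and 3 against 31 and 31.9, and Col25a1 4, 2 and 0 against 14 and 8. The log2 fold changes were 3.22, 2.63 and 2.201, and they were 4.15 without proliferation control 3 for Col8a2 and 3.39 and 3.12 without proliferation control 1 for Col22a1 and Col25a1. Col1a1 was called higher as well (log2 1.82 ± 0.72, edgeR adjusted p = 0.0416) on 3, 2 and 4 against 13 and 12 counts, and its call was lost without any 1 of the 5 controls or of the differentiation 4HBP libraries 1 and 2 (adjusted p 0.0523 to 0.148). That of Col25a1 was lost without differentiation control 1 (0.198), proliferation control 2 (0.0586) or proliferation control 3 (0.0718). Col22a1 overlaps an antisense gene, and the strand setting of the counting is not given in the sources used here.

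Among integrins that bind fibronectin and other RGD ligands, Itga5, the fibronectin receptor subunit, fell from 25.5, 22.6 and 43.3 to 7.52 and 7.59 normalized CPM (log2 -1.99 ± 0.27), and Itgav fell from 208.0, 204.8 and 265.9 to 107.1 and 116.2 (log2 -1.001 ± 0.11). Of the beta partners of Itgav, Itgb5 rose from 75.0, 73.8 and 69.8 to 135.7 and 131.7 (log2 0.89 ± 0.06), Itgb8 was called lower by 0.29 ± 0.12 on the log2 scale, and Itgb3 did not pass (log2 0.25 ± 0.31). The call of Itgb8 was lost without any 1 library of the controls or of differentiation medium (edgeR adjusted p 0.0538 to 0.179). Among laminin receptors Itga7 fell (log2 -0.77 ± 0.11), Itga3 rose (log2 0.90 ± 0.20), and Itga6 did not pass (log2 0.04 ± 0.09). Itgb1 fell from 530.0, 490.4 and 560.4 to 356.8 and 362.4 (log2 -0.53 ± 0.09). Itgb4, which pairs with Itga6 in epithelial anchors, had 2 to 18 counts and did not pass (log2 1.21 ± 0.61).

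The collagen receptor subunit Itga2 fell from 33.0, 47.8 and 29.9 to 8.83 and 9.20 normalized CPM (log2 -2.01 ± 0.23). Itga2b, the platelet subunit, fell from 97, 93 and 138 to 34 and 15 counts (log2 -2.35 ± 0.38, or -3.09 without differentiation control 1). Itga9 and Itga4, which bind tenascin or fibronectin and VCAM1, rose by 1.28 ± 0.20 and 0.72 ± 0.28, and Itga4 lost its call without either differentiation control, proliferation control 1 or 3 or differentiation 4HBP library 2 (edgeR adjusted p 0.0525 to 0.193). Itgb7, the usual partner of Itga4 on lymphocytes, rose from 22, 34 and 22 to 160 and 157 counts (log2 2.40 ± 0.26). Of the leukocyte subunits Itgad, Itgax and Itgam had at most 1 count in these libraries, whereas Itgal had 3, 2 and 0 counts in proliferation and 8 and 8 in differentiation controls, too few to be tested.

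The scale matters for several changes under about 1 log2 unit and for some larger ones. On TPM the median gene was shifted upwards by 0.40 log2 between the media in controls and by 0.34 under 4HBP, relative to the count fit. On that scale Itgb8 went from lower to higher without a call (log2 0.13, limma adjusted p = 0.492), and Itgav, Itgb1, Itga7, Itga3 and Lamb1 lost their calls, with Itgav and Itgb1 each at -0.10. On it Itga6 and Itgb3 gained calls, at 0.39 and 0.54. Under 4HBP Col22a1 went from 2.31 in the count fit to 0.65 on TPM, without a call (limma adjusted p = 0.380). Itgb2 went there from -2.01 to -1.005, also without a call (limma adjusted p = 0.252). The changes named above of 2 log2 units or more in Lama2, Lama4, Col6a1, Col6a2, Col4a1, Col4a2, Col11a2, Col16a1 and Col18a1 kept their calls on TPM. Their sizes moved in controls, for instance to -2.19 for Lama4, -2.80 for Col6a2 and 2.63 for Col4a2.

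**Figure D3:**
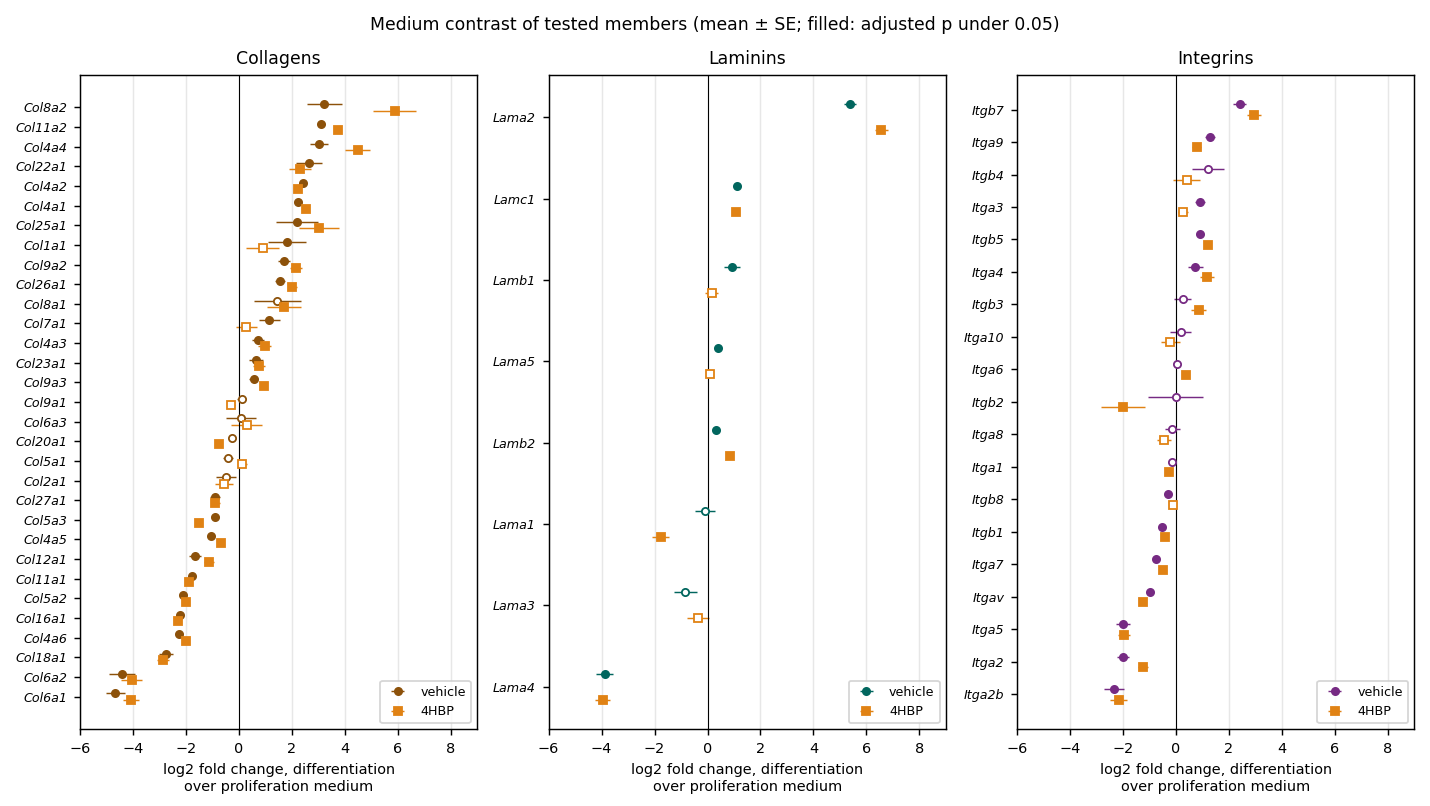
Log2 fold change, differentiation over proliferation medium, with its standard error for 58 of the 59 tested members, sorted within family by the value in control cultures. Circles are control and squares 4HBP cultures, filled where the edgeR adjusted p is under 0.05. Lama2 is highest among laminins at 5.36 and 6.56, and Col6a1 lowest among collagens at -4.67 and -4.08.

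Under 4HBP the same contrast called 22 members higher and 23 lower of 59, beside 33.3% and 33.8% of all genes. Without the third 4HBP library of proliferation medium these were 21 and 24 members, beside 5448 and 5467 of 15858 genes. The contrast under 4HBP uses other libraries than the control contrast but the same fit. In both treatments 19 members were called higher and 19 lower, no member was called in opposite directions, 6 were called in controls only and 7 under 4HBP only. The matching overlap over all genes was not counted, so these numbers are not read as particular to the members. The difference between treatments was tested as the interaction described further on, where only Col11a2 and Lamb2 passed. Lama2 was at 0.844, 0.486 and 0.463 normalized CPM in proliferation and 53.9, 57.5 and 56.3 in differentiation medium, a log2 fold change of 6.56 ± 0.25, or 6.41 without that library. Lama4 (-3.96 ± 0.28), Col6a1 (-4.08 ± 0.31) and Col6a2 (-4.06 ± 0.39) fell, and Col4a1 (2.54 ± 0.09), Col4a2 (2.24 ± 0.11) and Col11a2 (3.74 ± 0.09) rose. Col4a4 and Col8a2 were at or under 3 counts in each 4HBP library of proliferation medium, with 1, 1 and 1 and with 0, 0 and 1 counts, against 24, 35 and 22 and 22, 34 and 30 counts in differentiation medium. Lama1 was called lower in this contrast and not in controls (log2 -1.77 ± 0.32), from 1.89, 3.21 and 3.98 to 0.909, 0.839 and 0.887 normalized CPM. Itga6 (log2 0.37 ± 0.08) and Itgb3 (log2 0.86 ± 0.28) were called higher and Itgb2, the leukocyte beta subunit, lower (log2 -2.01 ± 0.84, edgeR adjusted p = 0.0487), the last on 14, 16 and 8 against 5, 3 and 2 counts. Itgb2 lost its call without any 1 differentiation 4HBP library or proliferation control 1 or 3 (adjusted p 0.0544 to 0.125), and Itgb3 without differentiation 4HBP library 1 or proliferation 4HBP library 2 or 3 (0.0515 to 0.0808).

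The genes that work with these families were taken from 6 lists. Their numbers stand beside 30.8% of all 15920 genes called higher and 30.6% called lower in the control contrast. Of 21 tested basement membrane partners 11 rose and 6 fell between the media in controls, with a median log2 fold change of 0.28. Nid1, the nidogen that links laminin to collagen IV, fell (log2 -2.96) and Nid2, its relative, rose (log2 1.79). Of 29 tested genes of collagen folding, crosslinking and processing 16 rose and 11 fell (median 0.34), with Pcolce2, a procollagen proteinase enhancer, at 3.70 and Colgalt2, a collagen galactosyltransferase, at -1.91. Of 25 other matrix ligands of integrins 9 rose and 12 fell (median -0.48), among them Thbs1 (6.19) and Fn1, fibronectin (-2.81). Of 37 integrin adhesion adaptors 12 rose and 9 fell (median 0.05), with Lims2 at 1.44 and Tgfb1i1 at -2.75. Of 25 matrix proteases and inhibitors 11 rose and 4 fell (median 0.38), with Mmp2, the type IV collagenase, at 6.70 (7.63 without proliferation control 2) and Timp1, a protease inhibitor, at -4.91. Of 11 other collagen and laminin receptors 4 rose and 7 fell (median -0.37), with Sdc4 at 1.45 and Cd44 at -2.98.

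Markers of cell types moved with the medium, in a contrast that called 30.8% of all genes higher and 30.6% lower. Of 10 oligodendrocyte lineage markers 7 were higher in differentiation controls and none lower, of 8 astrocyte markers 6 were higher and 2 lower, and of 10 stem cell markers 2 were higher and 8 lower. Of 9 tested neuron markers 4 were higher and 2 lower, with a median log2 fold change of 0.545. Pericyte and mesenchymal markers summed to 107.2 and 108.2 CPM in differentiation and 66.6 to 68.8 CPM in proliferation controls, with Pdgfrb higher by 5.29 (6.24 without proliferation control 2) and Acta2 lower by 1.98 on the log2 scale. Cspg4, also in the oligodendrocyte lineage list, made up 70.5 and 73.8 CPM and 49.6 to 53.9 CPM of these sums. Of the 6 tested genes of this list 2 were higher and 2 lower. The part of these shifts in the changes of collagens, laminins and integrins was not tested.

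In proliferation medium 4HBP was compared with vehicle to see whether matrix genes respond to the compound while cells divide. Of 50 tested members 1 rose, Lama1, and 4 fell, Lamb2, Itgb5, Col5a2 and Col4a5, and 45 did not pass. Over 14449 genes tested 3.74% were called higher and 3.69% lower. The median log2 fold change was -0.15 over the tested members, -0.20 over collagens, -0.06 over laminins and -0.13 over integrins, beside 0.0014 over all genes. Of the 50 values 35 were below 0, beside 7192 of 14449 genes. Without the third 4HBP library 1 of 51 members rose and 5 fell, beside 716 and 713 of 14655 genes. Col9a3 (log2 -0.49, edgeR adjusted p = 0.0223) and Itgb8 (-0.33, 0.0265) were then called lower in addition, and Col4a5 was no longer called. The medians were then -0.12 over the members, -0.21 over collagens, -0.0071 over laminins and -0.04 over integrins.

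Lama1, the alpha-1 chain of embryonic laminin, had 38, 66 and 86 counts with 4HBP and 16, 16 and 28 with vehicle. These were 1.89, 3.21 and 3.98 normalized CPM against 0.786, 0.795 and 1.40, and the groups did not overlap. The log2 fold change was 1.61 ± 0.36, 3.06-fold (edgeR adjusted p = 0.0321). Without the third 4HBP library it was 1.36 (adjusted p = 0.0444), but it lost its call without 4HBP replicate 2 (adjusted p = 0.0868), control replicate 1 (0.133) or control replicate 2 (0.139). At 0.25 to 0.60 TPM, Lama1 stayed far below Lama5, which was at 6.63 to 7.08 TPM in the same libraries.

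Lamb2 fell from 79.9, 91.9 and 87.4 to 66.0, 60.7 and 50.5 normalized CPM, with every 4HBP library below every control. The log2 change was -0.54 ± 0.10 (edgeR adjusted p = 0.0170), and -0.45 (adjusted p = 0.0118) without the third 4HBP library. Itgb5 fell from 75.0, 73.8 and 69.8 to 59.3, 55.8 and 52.3 normalized CPM, again without overlap, a log2 change of -0.38 ± 0.07 (adjusted p = 0.0187), and -0.34 (adjusted p = 0.0223) without that library. Both calls were lost without 4HBP replicate 2 (adjusted p = 0.0550 and 0.0746), control replicate 1 (0.0600 and 0.0947) or control replicate 2 (0.0889 and 0.0915). Lamb2 was the most abundant beta laminin of these libraries, and Itgb5 pairs with Itgav as a vitronectin receptor.

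Col5a2, a minor fibrillar chain, was at 31.3, 33.6 and 37.8 normalized CPM with vehicle and 27.3, 24.0 and 23.0 with 4HBP (log2 -0.46 ± 0.10, edgeR adjusted p = 0.0318). Col4a5 was at 139.0, 141.6 and 163.8 against 124.5, 118.8 and 105.4 (log2 -0.34 ± 0.09, adjusted p = 0.0470). Without the third 4HBP library Col5a2 kept its call (adjusted p = 0.0389) and Col4a5 did not (0.0544). Col5a2 also kept it without 4HBP replicate 1 (0.0414) but in no other fit with a library left out (adjusted p 0.0712 to 0.117), and Col4a5 kept it in none (0.0544 to 0.128).

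The partners of these genes did not pass. Col4a6, the neighbour of Col4a5, was at 91.5, 90.9 and 117.3 with vehicle and 84.6, 83.5 and 68.2 normalized CPM with 4HBP (log2 -0.34 ± 0.12, edgeR adjusted p = 0.114), which did not overlap. Col5a1, the partner of Col5a2, changed by -0.47 ± 0.18 (adjusted p = 0.151), and Itgav, the partner of Itgb5, overlapped between the groups. Lamc1 was at 134.3, 126.1 and 118.5 normalized CPM with 4HBP and 128.2, 120.0 and 140.1 with vehicle. Lama2 had 17, 10 and 10 counts against 15, 49 and 20 (log2 -1.21 ± 0.50, adjusted p = 0.175).

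**Figure D4:**
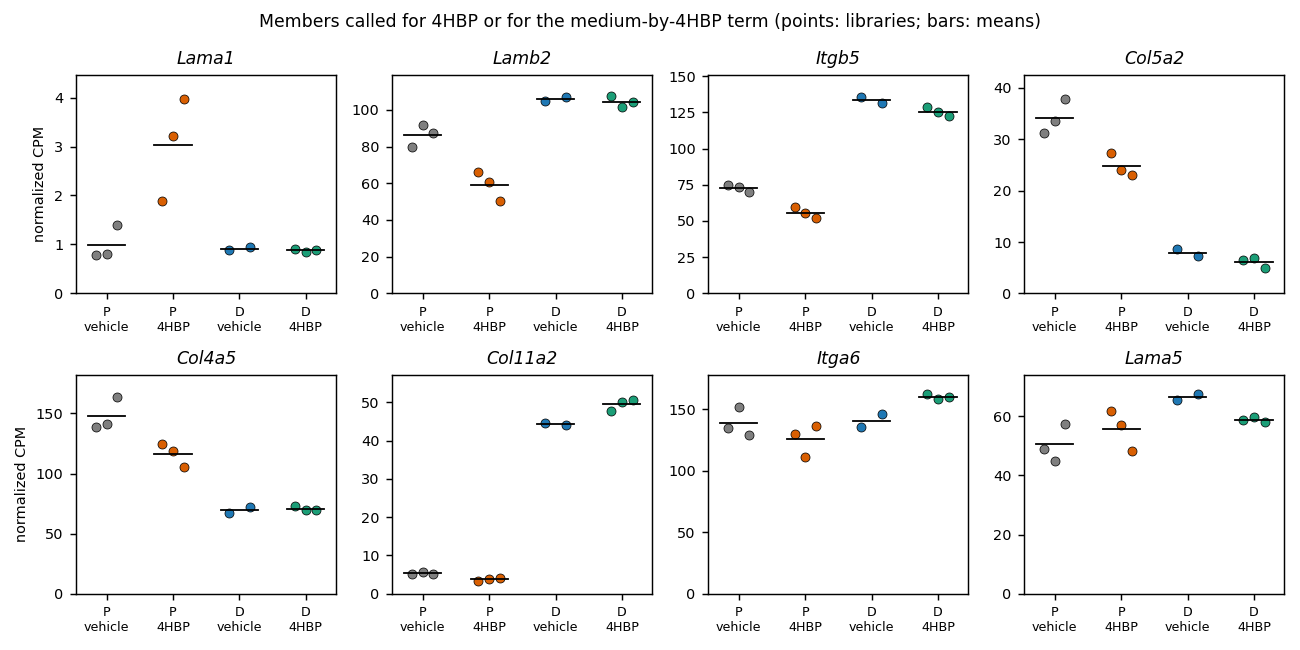
Normalized CPM of the 8 members called for 4HBP in a medium or for the difference of its effect between the media, a point for each library and a bar for each group mean, on linear axes from 0 (P, proliferation; D, differentiation). In proliferation medium Lama1 is higher and Lamb2, Itgb5, Col5a2 and Col4a5 are lower in all 3 libraries with 4HBP than in all 3 controls.

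By the study's own kind of test, limma on log2(CPM+1) with an unadjusted p under 0.05 and a log2 change over 0.58, 1 member was called of 79, Lama1 at 1.01, beside 2.12% of all genes. This scale understates the change of low genes. The list counts that follow are by edgeR, which called 3.74% of all genes higher and 3.69% lower here. In the lists 4HBP in proliferation medium raised 2 and lowered 5 of 20 basement membrane partners (median log2 fold change -0.22), and raised none and lowered 4 of 24 matrix proteases and inhibitors (median -0.08). Fbln5, a fibulin that binds integrins, rose by 3.39 and Nid1 fell by 0.97 on the log2 scale, and of the protease inhibitors Timp3 fell by 0.91. Without the third 4HBP library these values were 3.24, -0.79 and -0.88, all called, whereas Nid1 lost its call without control replicate 1 or 2 (edgeR adjusted p = 0.0623 and 0.0576). Of 26 genes of collagen folding 1 rose and 2 fell (median -0.05), of 25 other matrix ligands 1 rose and 2 fell (median -0.02), of 36 adhesion adaptors 1 rose and 2 fell (median 0.04), and of 11 other receptors none rose and 3 fell (median -0.19). Without that library the numbers that rose and fell were 2 and 6 for basement membrane partners, none and 3 for proteases and inhibitors, 2 and 2 for collagen folding, 3 and 4 for other ligands, 2 and 3 for adaptors and 2 and 4 for other receptors. Over all 14655 genes they were then 716 and 713. Astrocyte markers moved as well, with 5 of 8 lower under 4HBP and none higher, at a sum of 3754 to 4338 CPM beside 5468 to 6733 CPM with vehicle, the highest 4HBP value being that of the third library, without which 7 of 8 were lower. Pericyte and mesenchymal markers summed to 52.2 to 59.9 CPM beside 66.6 to 68.8 CPM. Most of both sums was Cspg4, also in the oligodendrocyte lineage list, at 33.1 to 46.7 CPM beside 49.6 to 53.9 CPM. None of the 5 tested genes of the pericyte and mesenchymal list was called. The part of these marker lists in the members' changes was not tested.

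In differentiation medium 4HBP was set against vehicle with 3 libraries and 2. Of 56 tested members Itga6 rose and Lama5 fell and 54 did not pass, beside 1.26% of 15484 genes called higher and 1.29% called lower. None of the 30 tested collagens passed in edgeR, DESeq2 or voom. An unadjusted edgeR p under 0.05 was found for 12 of the 30, beside 2460 of 15484 genes. The median log2 fold change was -0.02 over the members and -0.0010 over all genes.

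Itga6 was at 135.3 and 146.4 normalized CPM with vehicle and at 162.4, 158.8 and 160.1 with 4HBP, a log2 fold change of 0.19 ± 0.04 (edgeR adjusted p = 0.0239). Lama5, whose laminins Itga6 receptors bind, was at 65.4 and 67.4 against 58.9, 59.6 and 58.2, a log2 change of -0.17 ± 0.04 (adjusted p = 0.0477). The groups did not overlap for either gene, and the size was 1.14-fold up and 1.13-fold down. Itga6 kept its call only without control replicate 2 (adjusted p = 0.0303), and lost it without 4HBP replicate 1, 2 or 3 (0.0571, 0.0565 and 0.0503) or control replicate 1 (0.337). Lama5 lost its call whichever library was left out (adjusted p 0.0925 to 0.241), with DESeq2 (0.198) and with voom (0.0539). In the fit of all 11 libraries and on log2(TPM+0.1) neither gene was called, with an adjusted p of 1 for both.

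Members that 4HBP had changed in proliferation medium stood as follows in differentiation medium. Lama1 had 21, 20 and 19 counts with 4HBP and 20 and 23 with vehicle. Lamb2 was at 107.6, 101.5 and 104.5 normalized CPM against 104.6 and 107.3, and Col4a5 at 73.3, 69.8 and 69.4 against 67.4 and 72.5, so that the groups overlapped for Lamb2 and Col4a5. Itgb5 was at 128.6, 125.1 and 122.7 against 135.7 and 131.7 and did not pass (log2 -0.09 ± 0.04, edgeR adjusted p = 0.259). Col5a2 had 150, 164 and 104 counts with 4HBP and 195 and 175 with vehicle. These groups did not overlap, and the log2 change was -0.37 ± 0.15, beside -0.46 in proliferation medium, though it did not pass (edgeR adjusted p = 0.221, unadjusted 0.0233). By limma on log2(CPM+1) with the study's thresholds none of 79 members was called, beside 0.18% of all genes. At any fold 18 of the 79 had an unadjusted limma p under 0.05, beside 3129 of 27295 genes. The list counts that follow are by edgeR, which called 1.26% of all genes higher and 1.29% lower here. In the lists 5 of 21 basement membrane partners fell, among them Nid2 (log2 -0.49), and none rose. Of the adhesion adaptors 3 of 36 fell, with Vcl, vinculin, at -0.31, and of the other receptors 2 of 11 rose, Adgrg1, a collagen III receptor, by 0.15 and Sdc3 by 0.15. Of 29 genes of collagen folding P4hb rose and none fell, and of 24 other matrix ligands Tnc rose and 2 fell. Of 25 proteases and inhibitors edgeR and DESeq2 called none and voom 1. Of these 25, 7 had an unadjusted edgeR p under 0.05, beside 2460 of 15484 genes. Adgrg1, Sdc3, P4hb and Tnc each lost their call without at least 1 library (adjusted p 0.0503 to 0.405). Astrocyte markers summed to 7602 to 7914 CPM with 4HBP and 7785 and 7835 CPM with vehicle.

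**Figure D5:**
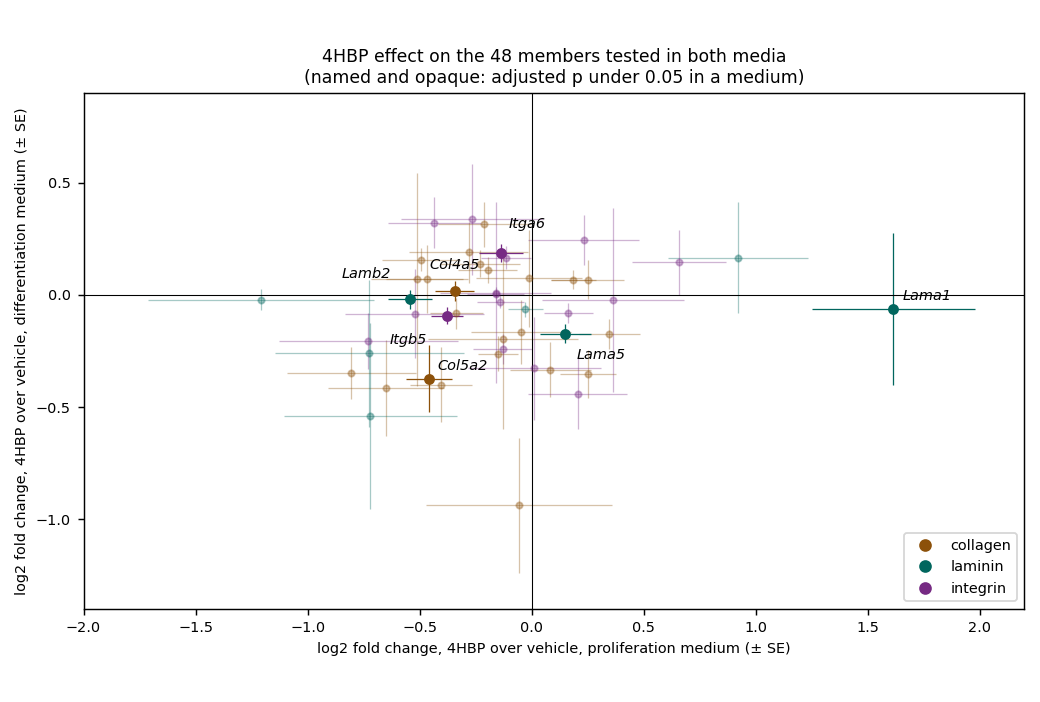
Log2 fold change, 4HBP over vehicle, in proliferation medium (horizontal) and in differentiation medium (vertical) with standard errors, for the 48 members tested in both. Named points passed the edgeR adjusted p of 0.05 in a medium. Lama1 lies at 1.61 in proliferation medium, and all other named points lie within 0.55 of 0 on both axes.

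The effect of 4HBP differed between the media for 2 of 59 members, Col11a2 and Lamb2, both with a more positive value in differentiation medium, beside 2.48% of all genes called higher and 2.01% called lower in this interaction test. For Col11a2 the 4HBP libraries were at 3.23, 3.79 and 4.17 normalized CPM against 5.16, 5.67 and 5.06 in proliferation medium, and at 47.9, 50.1 and 50.6 against 44.7 and 44.1 in differentiation medium. The groups did not overlap in either medium, though neither contrast passed by itself (edgeR adjusted p = 0.116 and 0.122). The difference of the log2 changes was 0.66 ± 0.14 (adjusted p = 0.0192). For Lamb2, whose values are given above, it was 0.53 ± 0.12 (adjusted p = 0.0291). For Lama1 the difference was -1.67 ± 0.51 and for Itgb5 0.29 ± 0.08, and neither passed (adjusted p = 0.0873 and 0.0700). Without the third 4HBP library of proliferation medium the interaction was 0.75 (adjusted p = 0.00572) for Col11a2 and 0.43 (adjusted p = 0.0128) for Lamb2. With these 2, 6 of 59 members were called higher and 1 lower, beside 601 and 493 of 15858 genes. The others were Col9a3 (log2 0.63, edgeR adjusted p = 0.00708), Itgb8 (0.33, 0.0235), Itga6 (0.40, 0.0435) and Itga2 (0.96, 0.0414), called higher, and Col20a1 (-0.60, 0.0360), called lower. The call of Col11a2 was lost without 4HBP replicate 2 or 3 or either control of differentiation medium, or without control replicate 2 of proliferation medium (adjusted p 0.0518 to 0.0903). That of Lamb2 was lost without any library of differentiation medium, or without 4HBP replicate 2 or control replicate 2 of proliferation medium (0.0512 to 0.173). On log2(TPM+0.1) neither gene was called (limma adjusted p = 0.545 for Col11a2 and 0.173 for Lamb2). Of the lists, 3 of 21 basement membrane partners were called higher in this test, Smoc1, Hspg2 and Agrn, and 2 lower, Fbln5 and Ntn4, and Timp3 (0.84), Adamts9 (0.72) and Mmp14 (0.62) were called higher of 25 proteases and inhibitors. Each of these 8 genes kept its call without the third 4HBP library of proliferation medium, but with another library left out 6 of them lost it, all but Fbln5 and Ntn4 (adjusted p 0.0516 to 0.211).

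Some members share sequence with other annotated genes, which limits how their reads can be assigned. Exons of 25 members overlap another gene, 7 on the same strand and 19 on the opposite strand. Itga1 overlaps Gm49395 on its own strand, and Itga7, Itgav, Lama2 and Col9a3 each overlap a gene on the opposite strand, and Col4a1 and Col4a2 overlap each other.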

How the data were processed

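Primary hippocampal NSCs were profiled by stranded mRNA sequencing in 11 libraries. Per the deposited tables, the authors trimmed reads with cutadapt and quantified genes with RSEM 1.3.0 and Bowtie2 2.2.9 on mm10 (GRCm38). The authors deposited, per gene, an expected count (RSEM estimate, not whole), TPM and FPKM. FPKM was not analysed, and the strand setting is not given in the sources used here.

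Symbols and positions came from GENCODE vM21, which matched 53620 of 53801 gene identifiers (99.7%). Expected counts were rounded and tested with edgeR 4.0.16 (quasi-likelihood, TMM, filterByExpr, two-sided, Benjamini-Hochberg adjusted p under 0.05 over all genes) in R 4.3.3. This replaced the study's limma test because the unit is counts, and the study's test was run beside it. 4HBP was tested within each medium apart, because the spread differed (common biological coefficient of variation 0.117 and 0.0368), and the media and the interaction over all 11 libraries (0.0907). SE is the log2 fold change divided by the square root of its F statistic. Alternatives were DESeq2 1.42.0, limma 3.58.1 (voom, log2(CPM+1), log2(TPM+0.1)), other filters and scalings, each library left out in turn and a replicate block. The procedure was tested on simulated data. TPM compares genes, normalized CPM compares libraries.

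Named members were, per family and comparison, the 4 called members in each direction with the largest change, the 5 with the highest mean TPM, those called for the interaction, and fixed partner chains, and per list the 3 called genes in each direction with the largest change. Col3a1, Col4a3, Itga1, Itgad, Itgal, Itgax, Itgam and Col20a1 lie outside that rule and were picked knowing their values, and markers are named from fixed lists. Members and lists were chosen with earlier results of these data known. Results of 2 genes that this rule names are not reported here.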

Additional observations from a re-analysis of the deposited data

Results flagged for a closer look

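The effect of 4HBP on Col11a2, a minor fibrillar collagen chain, differed between the media by 0.66 on the log2 scale (SE 0.14), lower with 4HBP in 3 of 3 proliferation libraries and higher in 3 of 3 differentiation libraries than all controls of that medium (edgeR interaction term, adjusted p = 0.0192). For Lamb2, a laminin beta chain, the effect differed by 0.53 (SE 0.12, edgeR adjusted p = 0.0291), with 3 of 3 libraries below the controls in proliferation medium and overlapping groups in differentiation medium. On log2(TPM+0.1) neither interaction was called (limma adjusted p = 0.545 and 0.173), and each lost its call in some fits with 1 library left out, with edgeR adjusted p up to 0.0903 for Col11a2 and 0.173 for Lamb2.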

How the results depend on the processing

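The medium contrasts kept their counts of called members within 1.5 times under every alternative run. With a library left out they called 18 to 24 members higher and 19 to 22 lower in controls, and 19 to 23 and 21 to 24 under 4HBP. On log2(TPM+0.1), added after seeing the data, Itgb8 reversed in the control contrast, to 0.13. The counts for 4HBP rest on few members and moved more. In proliferation medium (1 higher, 4 lower) they were 0 to 1 and 0 to 5 with a library left out, and 3 and 8 with all 11 libraries in 1 fit, and lower members numbered 2 on TPM. In differentiation medium (1 and 1) they were 0 to 1 and 0 to 1 with a library left out, 0 and 0 in the joint fit and on TPM, and lower members numbered 0 with DESeq2 and with voom and 6 without a filter on low counts. For the interaction (2 and 0) they were 0 to 6 and 0 to 3 with a library left out, 6 and 3 without a filter, 4 higher with DESeq2 and 0 higher on TPM. By the study's test in proliferation medium (1 and 0) they were 0 to 3 and 0 to 1 with a library left out, 3 and 2 with a pseudocount of 0.1 CPM, and 0 higher after Benjamini-Hochberg adjustment. In differentiation medium (0 and 0) lower members numbered 0 to 2 with a library left out, 1 with a filter at 1 CPM and 1 with a pseudocount of 0.1 CPM. The causes were not tested.

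Deviations of same-numbered libraries from their group means correlated at -0.03, -0.05 and -0.07 (proliferation) and 0.03 and 0.01 (differentiation). Such deviations cancel within a group of 3 or 2 libraries. These values therefore cannot decide whether same-numbered libraries share a preparation. A replicate block gave 1 lower member in proliferation medium, 3 higher and 2 lower in differentiation medium and 1 lower for the interaction.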
